A study of Mus musculus with 6 samples.

Results

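The genes described here are 41 genes of fatty acid oxidation, ketone body formation and the response to PPAR alpha, chosen by name and grouped by the organelle in which their products work. Of the 41 genes, 39 had a probe set annotated with that gene symbol alone, out of 18193 genes so annotated on the array. Cyp4a10 and Ucp2 had no such probe set and are not reported. All 39 passed the filter on dim probe sets, and the lowest mean of any of them over the 6 arrays was a log2 signal of 7.29 against a filter level of 5.50. The 39 comprised 18 mitochondrial genes, 13 peroxisomal genes, 3 genes whose products work in both organelles and 5 genes of other compartments.

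Livers of 3 wild-type mice (WT) and 3 mice lacking Chrebp in the liver (ChLO) were compared. All were males of 12 weeks that were given 60% sucrose in the diet during 1 week. ChLO mice combined floxed Chrebp alleles with Cre driven by the albumin promoter. Albumin is made by hepatocytes. The labels call the controls wild type and do not say whether they carried floxed alleles or the transgene. Each array measured the liver of 1 mouse.

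Liver burns fatty acids in more than one place. Long chains cross into mitochondria as carnitine esters and are shortened there by a spiral of dehydrogenation, hydration, oxidation and thiolysis, and the acetyl-CoA formed feeds the citric acid cycle or ketone bodies. Peroxisomes shorten very long and branched chains with a parallel set of enzymes, and CYP4A enzymes of the endoplasmic reticulum oxidise the far end of the chain. PPAR alpha is a nuclear receptor activated by fatty acids that binds DNA with RXR and induces genes of all these routes. ChREBP, the product of Chrebp, is activated by carbohydrate and drives glycolysis and fat synthesis, the opposite arm of liver fat metabolism.

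Chrebp is named Mlxipl on the array. It read 12.61, 12.56 and 12.59 log2 units in WT 1, 2 and 3 and 10.34, 11.22 and 11.48 in ChLO 1, 2 and 3, so all ChLO livers lay below all WT livers. Whether this probe set falls inside the deleted part of the gene is not stated, so it checks the labels only in part. All 10 hepatocyte markers passed the filter, with a summed linear signal of 421851 to 482524 in WT and 323954 to 413917 in ChLO. Relative to the mean of the WT arrays, their median was -0.45, -0.43 and -0.12 log2 units in ChLO 1, 2 and 3. Stellate cell and fibroblast markers stood apart in the same pair of arrays, with a median deviation of 1.72 in ChLO 1, 1.89 in ChLO 2 and -0.01 in ChLO 3. Any pair of arrays correlated at 0.894 to 0.954 across the 12598 genes tested. In whole liver, fewer cells of a type and less RNA per cell cannot be told apart.

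Neither the fatty acid oxidation genes nor any other gene passed an adjusted p of 0.05. Over all 12598 genes, limma with Benjamini-Hochberg adjustment called 0 genes, or 0%, and the smallest adjusted p among the 39 was 0.532. At an unadjusted p of 0.05, 1 of the 39 (2.56%) was past the threshold, Acot2, which was higher in ChLO. The share over all genes was 8.96% in either direction, 5.46% for genes higher in ChLO and 3.50% for genes lower in ChLO. The 3 ChLO arrays lay wholly below the 3 WT arrays for 2 genes, Acads and Abcd3, against 15.2% of all genes with groups that did not overlap in either direction and 6.19% with ChLO lower. Of the 39, 28 had a lower mean in ChLO and 11 a higher one, with a median ChLO minus WT difference of -0.16 log2 units beside 0.06 over all genes. With scaling to the spike-in controls 25 were higher and 14 lower, and the median was 0.09 where that of all genes was 0.31.

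How tightly these arrays bounded the differences varied between genes. The 95% confidence interval of the difference lay within a 2-fold change in both directions for 18 of the 39 genes (46.2%), and for 52.5% of all genes tested. All 8 genes of the mitochondrial oxidation spiral were among the 18. The interval was widest for Acot3, from -3.49 to 1.78 log2 units, and for Cyp4a14, from -0.70 to 4.15. The median within-group standard deviation (SD) of the 39 genes was 0.52 log2 units, against 0.35 over all genes.

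**Figure D1:**
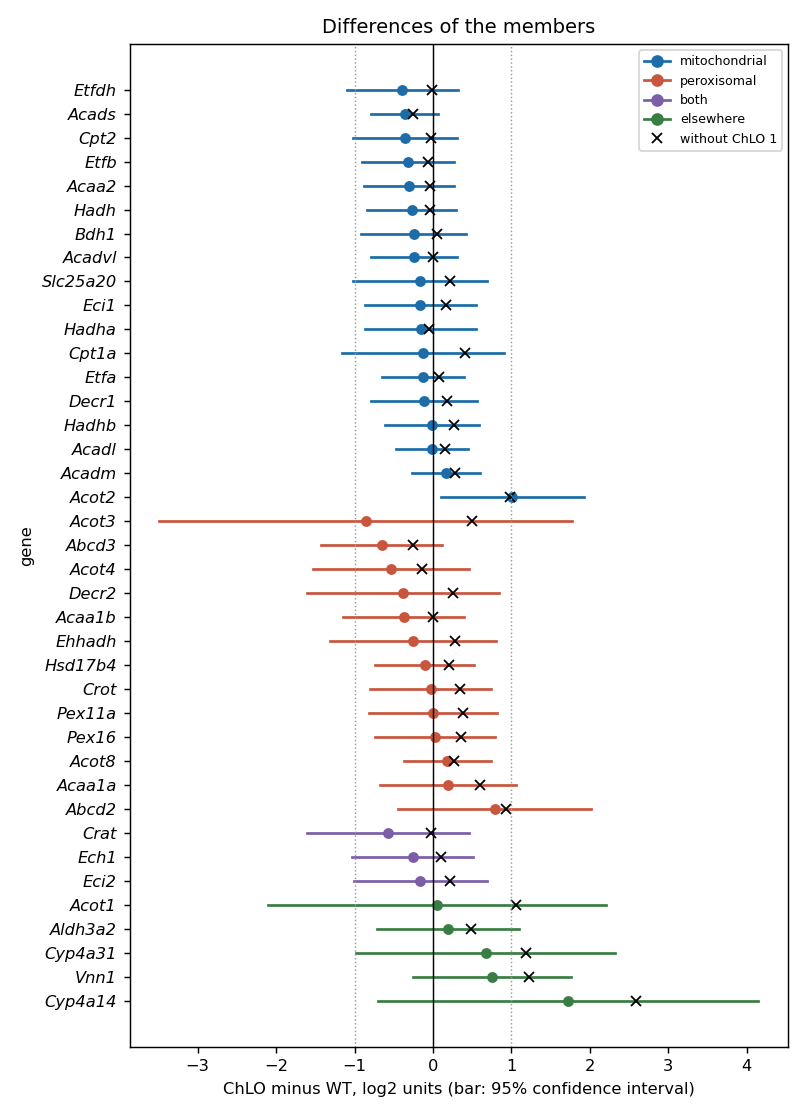
ChLO minus WT difference of each of the 39 genes in log2 units (x axis), with its 95% confidence interval as a bar and the difference without ChLO 1 as a cross; colours give the compartment and dotted lines mark a 2-fold change. Of the 39 intervals, 38 include 0, and 28 of the dots lie below 0 but 12 of the crosses do (14 genes are lower with spike-in scaling).

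A single ChLO liver differed from the rest across most of these genes. ChLO 1 gave the lowest of the 6 readings for 30 of the 39 genes (76.9%), and for the same 30 it was below every WT array. Over all genes tested, ChLO 1 was the lowest array for 22.3% and below every WT array for 29.2%. This count was made after the values were seen. ChLO 2 was below every WT array for 4 of the 39 genes and ChLO 3 for 2, against 3155 and 3022 of all 12598 genes. The low readings of ChLO 1 were not particular to the 39 genes. ChLO 1 was also below every WT array for all 10 hepatocyte markers and for 42 of 57 tested pathway genes outside the 41. For the same lists ChLO 2 was below every WT array for 9 of 10 and 26 of 57. Measured from the mean of WT, the median gene of the 39 stood at -0.78, 0.19 and 0.20 in ChLO 1, 2 and 3, against 0.09, 0.05 and 0.06 over all genes. Without ChLO 1, 27 of the 39 genes were higher in ChLO and 12 lower, and the median difference was 0.21.

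**Figure D2:**
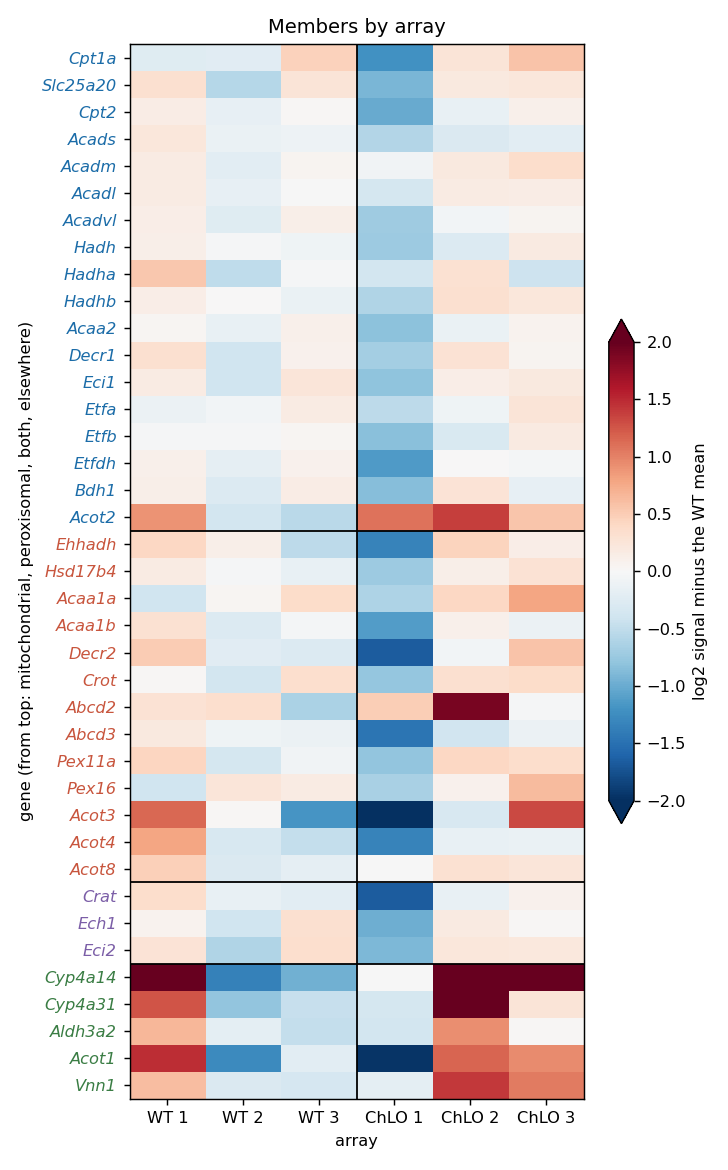
Log2 signal minus the WT mean (colour, limited to 2 in either direction) for the 39 genes (rows, grouped by compartment) on each of the 6 arrays (columns). The ChLO 1 column is blue for most genes, with a median of -0.78, whereas ChLO 2 and ChLO 3 have medians of 0.19 and 0.20.

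Transcripts of 3 genes for fatty acid entry into mitochondria did not differ beyond the spread between mice. The confidence interval ran from -1.16 to 0.90 log2 units for Cpt1a, -1.02 to 0.68 for Slc25a20 and -1.02 to 0.31 for Cpt2. Each of these intervals reached past a 2-fold decrease, so a change of that size was not excluded. Cpt1a, the carnitine palmitoyltransferase that controls entry, read 12.86, 12.87 and 13.55 in WT and 11.89, 13.35 and 13.67 in ChLO. ChLO 1 held the lowest value and ChLO 3 the highest, so the ChLO range of 3.42-fold spanned the whole WT range. The difference was -0.13 (SE 0.45, unadjusted p = 0.786), became 0.41 (SE 0.25) without ChLO 1, and was 0.13 with spike-in scaling. Dimmer Cpt1a probe sets, whose names mark them as able to match several transcripts, gave 0.42 and -0.09. Cpt2, which releases the chain inside the mitochondrion, read 12.02, 11.71 and 11.89 in WT and 10.86, 11.72 and 11.98 in ChLO. Only ChLO 1 lay outside the WT range, and the difference of -0.35 (SE 0.29) became -0.02 without it. A dimmer Cpt2 probe set, marked by its name as able to match several transcripts, went the other way at 0.45. Slc25a20, the carrier of carnitine esters across the inner membrane, differed by -0.17 (SE 0.37).

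The mitochondrial spiral showed small differences with narrow intervals. Acadm, the medium-chain acyl-CoA dehydrogenase, read 14.03, 13.66 and 13.92 in WT and 13.80, 14.07 and 14.23 in ChLO, with a difference of 0.16 and an interval of -0.27 to 0.60. It was the only gene of the 8 with a higher mean in ChLO. Acads, the short-chain dehydrogenase, read 11.84, 11.47 and 11.50 in WT and 11.02, 11.32 and 11.39 in ChLO. The groups did not overlap, the highest ChLO array being ChLO 3, and the difference was -0.36 (SE 0.18, unadjusted p = 0.0831, adjusted p = 0.595 by limma). The groups overlapped for all 39 genes once array medians were made equal. Acadl and Acadvl, the long-chain and very-long-chain dehydrogenases, differed by -0.01 (SE 0.20) and -0.24 (SE 0.24).

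Later steps of the spiral gave a like picture. Hadha, the alpha subunit of the trifunctional protein of long-chain oxidation, read 11.87, 10.82 and 11.31 in WT and 10.96, 11.64 and 10.92 in ChLO, and each group covered much of the other. Its difference was -0.16 (SE 0.31), and 0.09 with spike-in scaling. The beta subunit Hadhb differed by -0.02 (SE 0.26) and Hadh, the short-chain hydroxyacyl dehydrogenase, by -0.27 (SE 0.25). By their names, both probe sets can match several transcripts. Dimmer probe sets gave -0.15 and 0.04 for Hadhb and -0.31 and 0.20 for Hadh. Acaa2, the thiolase that ends each turn, read 14.06, 13.88 and 14.12 in WT and 13.19, 13.88 and 14.09 in ChLO, where only ChLO 1 was outside the WT range. Its difference of -0.30 (SE 0.25) was -0.04 without ChLO 1. The Acaa2 probe set can match several transcripts by its name, and dimmer Acaa2 probe sets gave -0.42 and -0.25. Decr1 and Eci1, which prepare unsaturated chains for the spiral, differed by -0.11 (SE 0.29) and -0.16 (SE 0.31). A dimmer Decr1 probe set gave -0.61.

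The route that passes electrons from the acyl-CoA dehydrogenases to the respiratory chain was lowest in ChLO 1 at all 3 genes. Etfa and Etfb, the subunits of the electron transfer flavoprotein, differed by -0.12 (SE 0.23) and -0.32 (SE 0.25), and Etfdh, the enzyme that hands on the electrons, by -0.39 (SE 0.31). The WT SD of Etfb was 0.04 and its ChLO SD was 0.51. Without ChLO 3, Etfb differed by -0.57 (unadjusted p = 0.0207) and Hadh by -0.50 (unadjusted p = 0.0360), and together with Abcd3 these were 3 of the 39 genes lower at an unadjusted p of 0.05 (7.69%), against 8.04% of all genes. Without ChLO 1 the differences of Etfa, Etfb and Etfdh were 0.08, -0.06 and -0.02. A dimmer Etfdh probe set, with a mean of 5.80 near the filter level, gave 0.08 over all arrays.

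Ketone body formation was represented by Bdh1, the mitochondrial enzyme that interconverts acetoacetate and beta-hydroxybutyrate. Bdh1 read 13.49, 13.10 and 13.51 in WT and 12.52, 13.64 and 13.20 in ChLO. ChLO 1 was lowest and ChLO 2 highest of all 6 arrays. The difference was -0.24 (SE 0.29), and 0.06 without ChLO 1 and 0.01 with spike-in scaling. A second, dimmer Bdh1 probe set differed by 0.11.

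Peroxisomal oxidation genes varied more between mice than the mitochondrial ones, with a median within-group SD of 0.55 against 0.40 log2 units. The 95% interval lay within a 2-fold change for 5 of the 13 peroxisomal genes and 13 of the 18 mitochondrial genes. Ehhadh, the bifunctional enzyme of the inducible peroxisomal spiral, read 13.41, 13.12 and 12.48 in WT and 11.67, 13.45 and 13.14 in ChLO. ChLO 1 lay below and ChLO 2 just above the WT range, and the difference of -0.26 (SE 0.46) became 0.29 without ChLO 1. Hsd17b4, the bifunctional enzyme of the constitutive route, differed by -0.11 (SE 0.27). The name of its probe set marks it as able to match several transcripts, and a dimmer set without that mark gave -0.30. Acaa1b, a peroxisomal thiolase, read 15.59, 14.9995 and 15.24 in WT and 14.16, 15.39 and 15.16 in ChLO. Again only ChLO 1 was outside the WT range, and the difference of -0.37 (SE 0.33) became -0.0025 without it.

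Acaa1a, the thiolase encoded by a close relative of Acaa1b, read 9.12, 9.57 and 9.90 in WT and 8.90, 9.94 and 10.31 in ChLO, a difference of 0.19 (SE 0.37). Its probe set name marks it as able to match several transcripts, so signal from its relative cannot be told apart. ChLO 1 was below the WT range, and ChLO 2 and ChLO 3 were above it. Decr2, which prepares unsaturated chains in peroxisomes, differed by -0.38 (SE 0.53), with a ChLO range of 4.73-fold. Crot, the octanoyltransferase that sends shortened chains on to mitochondria, differed by -0.03 (SE 0.33).

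Import and organelle number gave one separation between the groups. Abcd3, a transporter of acyl-CoAs into peroxisomes, read 14.54, 14.26 and 14.22 in WT and 12.88, 13.96 and 14.22 in ChLO. The groups did not overlap, but WT 3 and ChLO 3 shared the value 14.22 after rounding. The difference was -0.65 (SE 0.33, unadjusted p = 0.0874, adjusted p = 0.598 by limma), -0.25 without ChLO 1 and -0.92 without ChLO 3. Abcd2, a related transporter, read 7.18, 7.24 and 6.26 in WT and 7.38, 8.79 and 6.87 in ChLO, and differed by 0.79 (SE 0.53). Pex11a, which drives peroxisome division, read 11.70, 10.93 and 11.21 in WT and 10.49, 11.70 and 11.63 in ChLO. Its difference was 0.00 (SE 0.35), and 0.25 with spike-in scaling. Pex16, needed for the peroxisomal membrane, differed by 0.02 (SE 0.33).

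Mitochondrial and peroxisomal genes had similar median differences, and most genes of both sets had a lower mean in ChLO. Of the 18 mitochondrial genes 16 were lower and 2 higher, and of the 13 peroxisomal genes 9 were lower and 4 higher. With spike-in scaling, 6 of the 18 and 6 of the 13 were lower, and 2661 of all 12598 genes. The median difference was -0.16 over the 18 mitochondrial genes and -0.11 over the 13 peroxisomal genes, and 0.09 and 0.14 with spike-in scaling. That of all genes was 0.06 as deposited and 0.31 with spike-in scaling, so both sets stayed below it. By array, the mitochondrial medians were 0.14, -0.19 and 0.06 in WT and -0.72, 0.14 and 0.16 in ChLO. The peroxisomal medians were 0.31, -0.08 and -0.14 in WT and -0.79, 0.12 and 0.29 in ChLO. Both sets were thus lowest in ChLO 1 and above the WT mean in ChLO 2 and ChLO 3. The median differences of the sets lay -0.06 log2 units apart. The gap between the set medians on single arrays had a within-group SD of 0.16. That SD describes single arrays and is not an error of the group difference. The gap was 0.07 with the mean of all probe sets and 0.09 without multi-transcript probe sets, where the peroxisomal median was -0.21 and -0.26. Without ChLO 1 the medians were 0.07 and 0.29, a gap of -0.22. The genes of both organelles, Crat, Ech1 and Eci2, differed by -0.57 (SE 0.45), -0.26 (SE 0.33) and -0.16 (SE 0.37), and all 3 were lowest in ChLO 1. They encode an acetyl carnitine transferase and a pair of isomerases for unsaturated chains. The Crat probe set can match several transcripts by its name, and dimmer Crat probe sets gave -0.65 and -1.30.

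**Figure D3:**
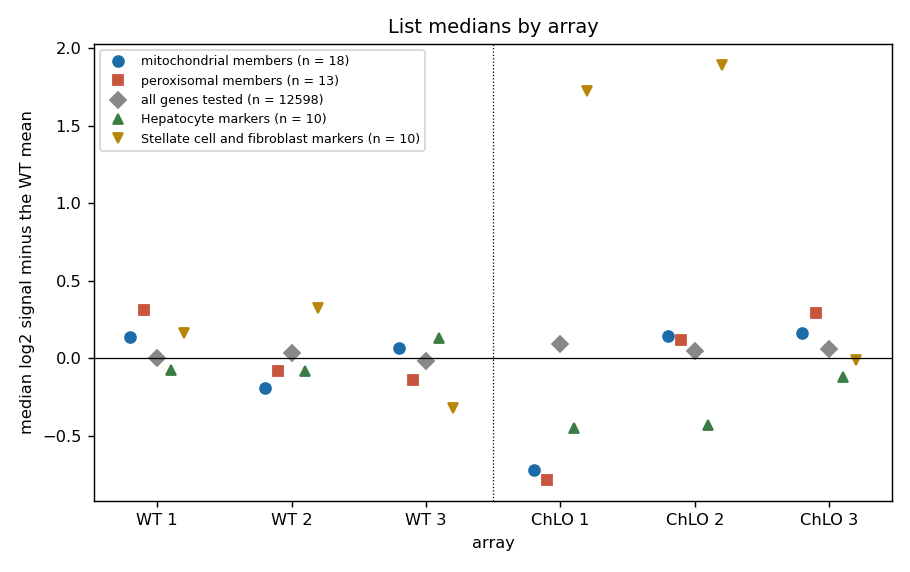
Median log2 signal minus the WT mean (y axis) on each array (x axis) for the mitochondrial and peroxisomal genes, all genes tested, hepatocyte markers and stellate cell and fibroblast markers; n is the number of genes in a list. In ChLO 1 the mitochondrial and peroxisomal medians are -0.72 and -0.79, and in ChLO 2 they are 0.14 and 0.12; the hepatocyte medians are -0.45 and -0.43 and the stellate medians 1.72 and 1.89 in the same arrays.

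Markers of other cells moved with ChLO 1 and ChLO 2, and their part in the low values of ChLO 1 was not tested. All 10 stellate cell and fibroblast markers were detected, with a summed linear signal of 9150 to 14226 in WT and 25553, 31217 and 11446 in ChLO 1, 2 and 3. Macrophage and monocyte markers, 9 of 10 detected with Itgam under the filter level, summed to 12541 to 12827 in WT and to 20641, 19180 and 11393 in ChLO. In ChLO 1, Cd14 stood 3.49 log2 units above the WT mean, while the Kupffer cell markers Clec4f and Vsig4 stood at -0.70 and -0.45, below every WT array. Marco, on the same list, stood at 2.27 there, and Adgre1 and Csf1r stood at -0.07 and 0.07. Of the 9 tested, 5 were above every WT array in ChLO 1 and 2 below. Bile duct markers, 5 of 7 tested with Cftr under the filter level and Spp1 not analysed here, summed to 220 to 389 in WT and to 1542, 753 and 379 in ChLO. Cldn4 stood 4.57 above the WT mean in ChLO 1, Epcam was at -0.02 there, and Krt7 had a lower mean in ChLO (-0.12). Neutrophil markers, 3 of 4 tested with Ly6g not analysed here, summed to 167 to 454 in WT and to 907, 754 and 217 in ChLO. Mpo went the other way from S100a8 and S100a9, with a difference of -1.05 against 1.04 and 0.96. The 7 endothelial markers summed to 7028 to 8241 in WT and 7073 to 9648 in ChLO. Lymphocyte markers (2 of 7 tested), adipocyte markers (1 of 5) and muscle markers (3 of 4) were mostly near or under the filter level, with Cd3e, Cd3g, Cd4, Cd79a, Adipoq, Cidea, Ucp1 and Myh4 under it.

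Genes of omega-oxidation and the pantetheinase gene Vnn1 are known PPAR alpha targets in mouse liver, and Cyp4a14 and Cyp4a31 varied widely between mice of one genotype. Cyp4a14, a fatty acid omega-hydroxylase, read 13.60, 9.93 and 10.33 in WT and 11.29, 14.16 and 13.59 in ChLO. WT 1 was thus as high as ChLO 3, and the WT mice alone spanned a 12.7-fold range. The difference was 1.73 (SE 1.05, unadjusted p = 0.139). It was 2.59 (SE 0.98, unadjusted p = 0.0316) without ChLO 1 and 2.88 (SE 0.78, unadjusted p = 0.0081) without WT 1, where the groups no longer overlapped. Without ChLO 3 it was 1.44 (SE 1.15, unadjusted p = 0.248 by limma). It ran from 1.05 to 2.88 when 1 array was left out in turn. Cyp4a31, a second omega-hydroxylase gene, read 10.92, 8.87 and 9.20 in WT and 9.31, 11.79 and 9.92 in ChLO. WT 1 was again the highest WT array and ChLO 2 the highest of all, and the difference was 0.67 (SE 0.71). The CYP4A genes are close relatives, and signal from one on the probe set of another cannot be told apart here.

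Vnn1, which releases pantothenate and cysteamine at the cell surface, read 12.00, 11.08 and 11.05 in WT and 11.17, 12.79 and 12.41 in ChLO. ChLO 2 and ChLO 3 were above all WT arrays and ChLO 1 was among them. The difference was 0.75 (SE 0.44, unadjusted p = 0.125), and a second probe set gave 0.87. When 1 array was left out in turn, the difference ran from 0.41 to 1.22. It was 0.61 (SE 0.47, unadjusted p = 0.238 by limma) without ChLO 3. Without ChLO 1 the difference was 1.22 (SE 0.31, unadjusted p = 0.0051). Vnn1 and Cyp4a14 were the 2 genes of the 39 (5.13%) higher at an unadjusted p of 0.05 in that fit, against 3.09% of all genes. The smallest limma adjusted p of the 39 genes in that fit was 0.469. In that fit 4 genes, Acadm, Hadhb, Acaa1a and Vnn1, had both ChLO arrays above all WT arrays (10.3%), against 12.7% of all genes. Aldh3a2, which oxidises the fatty aldehydes that omega-oxidation passes on, read 11.97, 11.11 and 10.83 in WT and 10.94, 12.23 and 11.33 in ChLO. WT 1 was again the highest WT array and ChLO 2 the highest of all, over a smaller span, and the difference was 0.20 (SE 0.39). Without ChLO 2, Cyp4a31 and Aldh3a2 differed by -0.05 and -0.17, and Aldh3a2 differed by -0.04 without WT 3.

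**Figure D4:**
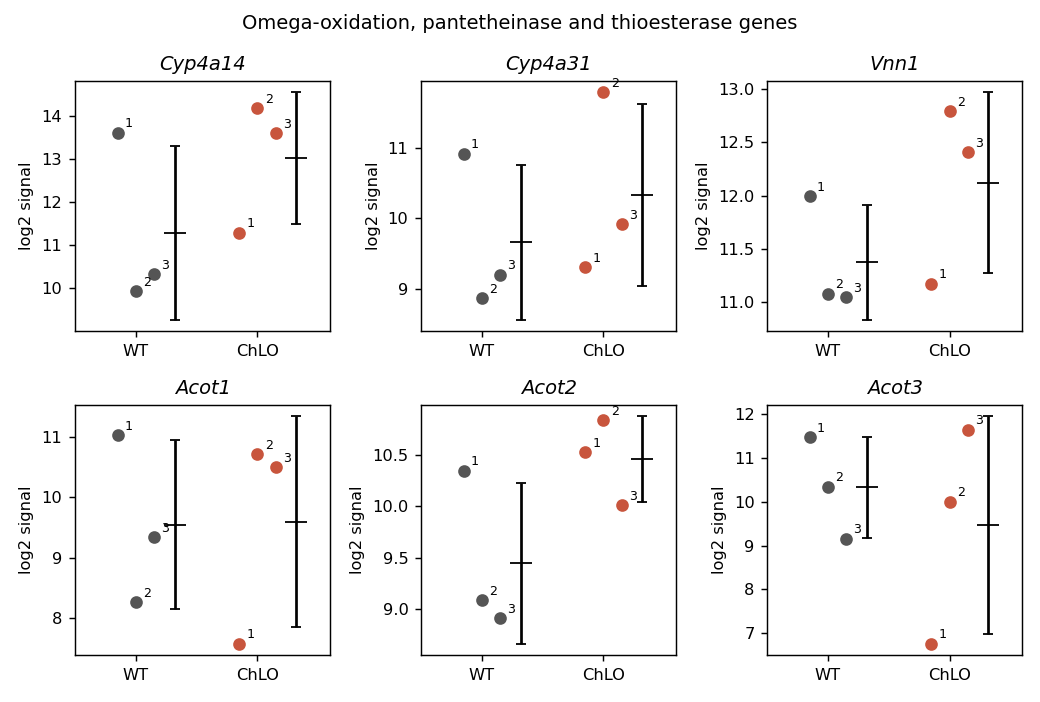
Log2 signal of 6 genes in each mouse (points, numbered by replicate) of the WT and ChLO groups, with the group mean and SD (n = 3) beside them; each panel has its own y axis. WT 1 is the highest WT point for all 6 genes, and ChLO 1 is the lowest ChLO point for all but Acot2.

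Acyl-CoA thioesterases free fatty acids from coenzyme A, and the mouse genes Acot1 to Acot4 encode related enzymes of the cytosol, mitochondria and peroxisomes. These 4 genes lie near each other on chromosome 12, and their upstream sequences are shown because genes of one cluster gave different patterns in the same livers. The sequences are from RefSeq (build GRCm38.p6, plus strand), 5′ to 3′. For Acot1, Acot2 and Acot3 they are the 150 bases before the annotated start, at chr12:84009352-84009501, chr12:83987711-83987860 and chr12:84051994-84052143. For Acot4 they are 30 bases at chr12:84038301-84038330 with a CACGTG hexamer, an E box, in capitals. Acot3 had 2 annotated windows, and that at the lower coordinate is shown.
Acot1: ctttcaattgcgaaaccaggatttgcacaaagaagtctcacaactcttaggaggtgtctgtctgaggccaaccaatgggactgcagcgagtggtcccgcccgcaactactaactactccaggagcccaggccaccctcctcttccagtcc
Acot2: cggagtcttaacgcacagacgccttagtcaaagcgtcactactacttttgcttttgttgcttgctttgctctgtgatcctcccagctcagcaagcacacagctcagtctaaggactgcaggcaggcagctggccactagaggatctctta
Acot3: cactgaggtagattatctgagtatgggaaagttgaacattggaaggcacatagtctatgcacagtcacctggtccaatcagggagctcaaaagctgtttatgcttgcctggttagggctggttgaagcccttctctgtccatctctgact
Acot4: ctttcacaacacCACGTGggagtggcgaga

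Acot1, the cytosolic enzyme, read 11.03, 8.27 and 9.34 in WT and 7.58, 10.71 and 10.49 in ChLO. WT 1 was the highest array and ChLO 1 the lowest, and the difference was 0.05 (SE 0.93). It lay between -0.59 and 1.05 when 1 array was left out in turn. Acot2, the mitochondrial enzyme, read 10.34, 9.09 and 8.91 in WT and 10.53, 10.84 and 10.01 in ChLO. Here ChLO 1 was high, and only WT 1 overlapped with the ChLO arrays. The difference of 1.01 (SE 0.40), or 2.01-fold, had an unadjusted p of 0.0342 and a limma adjusted p of 0.532. A second Acot2 probe set gave 1.28. The difference ranged from 0.74 to 1.46 when an array was left out. Its unadjusted p was 0.116 without WT 2, 0.124 without WT 3, 0.0668 without ChLO 1 and 0.110 without ChLO 2, and 0.0015 without WT 1, where the groups did not overlap.

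The peroxisomal thioesterases were lowest in ChLO 1, apart from Acot8. Acot3 read 11.48, 10.35 and 9.15 in WT and 6.77, 10.002 and 11.65 in ChLO, a 29.5-fold range between ChLO mice. Its probe set can match several transcripts, and the difference of -0.85 (SE 1.14) became 0.50 without ChLO 1. Acot4 read 10.54, 9.44 and 9.28 in WT and 8.42, 9.60 and 9.63 in ChLO and differed by -0.54 (SE 0.43). Acot8, which acts on a broad range of peroxisomal acyl-CoAs, differed by 0.18 (SE 0.24). Acot2 and Abcd2 were the 2 genes of the 39 (5.13%) higher at an unadjusted p of 0.05 without ChLO 3, at 1.23 (SE 0.41) and 1.19 (SE 0.50), against 12.4% of all genes.

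Promoter windows of 250 bases before the start were available for 32 of the 41 genes. A direct repeat of the PPAR type, AGGNCANAGGNCA on either strand, was in 0 of the 32 windows and in 0.4% of 27025 genes. The carbohydrate response element, CANGNGNNNNNCNCNTG, was in 0 of the 32 and in 0.525% of all genes. An E box, CACGTG, was in 2 windows, those of Acot4 at 66 bases and Aldh3a2 at 30 bases before the start, and in 6.86% of all genes. The E box and the carbohydrate response element share letters and can overlap. No match says only that these letters are not in the window.

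Regulators of the pathway were also lowest in ChLO 1. Of 9 regulator genes listed, 8 were tested and all 8 had their lowest reading in ChLO 1. At an unadjusted p of 0.05, 1 of 8 was lower, against 3.50% of all genes, and 0 were higher; 0 passed the adjusted threshold. Ppara itself read 12.01, 11.84 and 12.19 in WT and 10.89, 11.88 and 12.15 in ChLO. ChLO 2 and ChLO 3 lay within the WT range, and the difference was -0.37 (SE 0.32). Ppargc1a, a coactivator of oxidative genes, read 9.62, 9.72 and 9.43 in WT and 8.23, 8.67 and 9.47 in ChLO, with a difference of -0.80 (SE 0.31, unadjusted p = 0.0343, adjusted p = 0.532 by limma). ChLO 3 was within the WT range. The median over the regulators was -0.38, but leaving out ChLO 1 gave 0.01 and leaving out ChLO 3 gave -0.70. Spike-in scaling gave -0.13, where the median of all genes was 0.31.

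Among 19 tested genes of other oxidation and ketone body steps (of 23 listed), 1 was lower and 0 higher at an unadjusted p of 0.05, where 3.50% of all genes were lower. The median was -0.25, but leaving out ChLO 1 gave 0.07. Spike-in scaling gave -0.0026, where the median of all genes was 0.31. The lower gene was Hacl1, the peroxisomal lyase that shortens branched and hydroxylated chains. It read 13.46, 13.54 and 13.52 in WT and 10.42, 11.83 and 12.62 in ChLO, so every ChLO liver was below every WT liver. The difference was -1.88 (SE 0.48), or 3.69-fold lower, with an unadjusted p of 0.0046 and an adjusted p of 0.398. Scp2, the sterol carrier and thiolase of the branched-chain route, also did not overlap, with readings of 15.50, 15.40 and 15.71 for WT livers and 14.61, 15.14 and 15.31 for ChLO livers. Of the 19 genes, 3 lay wholly lower in ChLO and 0 wholly higher, where 6.19% of all genes lay wholly lower. Of 15 other peroxisome biogenesis and transport genes, 11 were tested and 0 had an unadjusted p below 0.05. Of the 11, 1 lay wholly lower in ChLO and 0 wholly higher. The median was -0.22, while leaving out ChLO 1 gave -0.09 and spike-in scaling gave 0.03, against 0.31 for all genes.

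Of 22 further PPAR alpha targets, 19 were tested, and 3 were lower and 0 higher at an unadjusted p of 0.05, where 3.50% of all genes were lower. The median was -0.28, but leaving out ChLO 1 gave 0.06. Spike-in scaling gave -0.02, where the median of all genes was 0.31. The 3 genes were Me1, at -3.37 (SE 0.70), Mgll, at -1.67 (SE 0.46), and Gpd1, at -1.07 (SE 0.34). Me1, malic enzyme, supplies NADPH for fat synthesis and Gpd1 makes glycerol phosphate for triglyceride, so both also serve fat synthesis, and Mgll is monoglyceride lipase. None passed the adjusted threshold (adjusted p from 0.246 to 0.455). Fabp1, the liver fatty acid binding protein, read 16.19, 16.13 and 16.38 in WT and 14.99, 15.87 and 15.98 in ChLO, with groups that did not overlap and a difference of -0.62 (SE 0.28). Of the 19 targets, 4 lay wholly lower in ChLO and 0 wholly higher, where 6.19% of all genes lay wholly lower. Targets usually sensitive to fasting gave no separation, with Pdk4, a kinase that shuts off pyruvate dehydrogenase, at 0.50 (SE 0.74), Angptl4, a lipase inhibitor, at -0.53 (SE 0.39), and Plin2, a lipid droplet coat protein, at 0.05 (SE 0.25).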

How the data were processed

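The authors deposited 1 table of log2 signals for 45101 probe sets on 6 Affymetrix arrays, made with MAS5 per the submitters' processing notes, which give no version. The linear signal of each array had a mean of 500 after 2% was trimmed from each end, and such scaling hides a change shared by most transcripts. Probe sets were named through the platform annotation (34945 with 1 symbol, 932 with several, 9160 with none, 64 controls). Probe sets under the 40th percentile of the mean were left out, and each gene was its probe set with the highest mean. ChLO minus WT was fitted over all genes in R 4.3.3 by limma 3.58.1 (lmFit, eBayes with a trend, Benjamini-Hochberg adjustment), a fit tested on simulated data. SE is limma's moderated standard error, and 3 arrays a group limit the precision. The members and lists were chosen with earlier results of these data known, so lists have counts and medians and no test. Values per array are given for members with an unadjusted p under 0.05 or groups that did not overlap and for genes fixed by name. Abcd2, Aldh3a2, Cyp4a31, Acot3 and Acot4 were added after their values were seen. Other pathway genes came from the 10 smallest unadjusted p and 7 names. Same-numbered arrays deviated with correlations of 0.30, -0.17 and 0.06 and were not paired. Alternatives were quantile normalization, equal medians, scaling to 9 spike-in probe sets, no filter or the 60th percentile, a pseudocount of 32, no trend, the mean of all probe sets, no multi-transcript probe sets, the replicate block, and each array left out.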

Additional observations from a re-analysis of the deposited data

How the results depend on the processing

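With 3 mice a group, none of the 39 genes reached an adjusted p of 0.05 in the limma fits run here, where the smallest adjusted p of a member was 0.152, without ChLO 3. The count of genes called over all genes was 0 as deposited, 3 with no filter, 6 with a pseudocount of 32, 1 with the replicate block, and 0 to 302 when an array was left out (302 without ChLO 3). The number of members with an unadjusted p under 0.05 was 1 as deposited, 2 with spike-in scaling (Acadm and Acot2), 0 with no trend, and 0 to 5 when an array was left out. The replicate block left it at 1. With spike-in scaling, 2045 of all 12598 genes had an unadjusted p under 0.05, and 1867 of them were higher in ChLO. The 5 members were found without ChLO 3, where 2575 of all 12598 genes had an unadjusted p under 0.05. The number whose groups did not overlap was 2 as deposited and 0 with equal array medians. It was 1 with each of quantile normalization, spike-in scaling and the mean of all probe sets, and 2 to 7 when an array was left out. With spike-in scaling 1 member lay wholly higher and 0 wholly lower, against 2656 and 274 of all 12598 genes. A group left with 2 arrays separates more readily for any gene. Without ChLO 3, 2 members lay wholly higher and 4 wholly lower, against 2935 and 2016 of all 12598 genes. Without ChLO 1 they were 4 and 2, against 1598 and 1181 of all genes. The 7 were found without WT 1. For that fit and the other alternatives no share over all genes was counted, so those counts cannot be set against all genes. The gap between the mitochondrial and peroxisomal medians ran from -0.22 (without ChLO 1) to 0.0517 (without WT 3) when an array was left out, and turned to 0.07 with the mean of all probe sets and 0.09 without multi-transcript probe sets.

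Single differences changed sign with spike-in scaling for Cpt1a (0.13), Hadha (0.0937), Bdh1 (0.0066) and Pex11a (0.25), with equal array medians for Pex11a (0.0082), and with the mean of all probe sets for Cpt1a (0.0678) and Cpt2 (0.0479). When an array was left out, Cpt1a ran from -0.47 to 0.41, Hadha from -0.41 to 0.11, Bdh1 from -0.50 to 0.0556, Ehhadh from -0.60 to 0.29, Acaa1a from -0.11 to 0.60, Pex11a from -0.22 to 0.39, Acot1 from -0.59 to 1.05, Acot3 from -1.94 to 0.50, Cyp4a31 from -0.0509 to 1.30 and Aldh3a2 from -0.17 to 0.53. The differences of Cyp4a14, Vnn1, Acot2, Acadm, Acads, Acaa2, Acaa1b and Abcd3 kept their direction in all the alternatives run. Of the 39 genes, 16 changed sign without ChLO 1 and 14 with spike-in scaling, against 7 or fewer under each other alternative. Spike-in scaling moved the median of all genes from 0.06 to 0.31. Of 20 members with more than 1 probe set past the filter, 6 had a probe set of opposite sign.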
